A study of Mus musculus with 111 samples.

Results

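The genes described here encode the proteins of the cytosolic ribosome. They were chosen by name alone, as every row of the gene tables whose symbol is Rpl or Rps followed by a number, together with Rplp0, Rplp1, Rplp2 and Rpsa, without pseudogene names and without the Rps6k kinases. This gave 87 of the 54087 gene rows, 51 named for the large subunit and 36 for the small subunit. By the annotation 83 of them are protein-coding genes, whereas Rps3a2, Rps3a3 and Rps12l1 are processed pseudogenes and Rps4l is a transcribed processed pseudogene, which the name rule does not separate. A ribosome joins a large subunit, which forms peptide bonds and holds the exit tunnel, to a small subunit, which decodes the mRNA. The mRNAs of its proteins are among the most abundant of most cells, and many begin with a C followed by a run of pyrimidines, the 5′ terminal oligopyrimidine (TOP) motif, through which mTOR signalling sets their translation. In the brain, ribosome production is tied to feeding, growth factors and neuronal activity, which follow the daily cycle.

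RNA-seq libraries were made from the tuberomammillary nucleus (TMN) of male and female C57BL/6J mice, which were purchased at 8 to 10 weeks of age. The TMN is the histaminergic nucleus of the posterior hypothalamus. The mice had received an adeno-associated virus (AAV) into the TMN 21 days before the tissue was taken. Mice of the GFP group received an empty vector with GFP, those of the H3.3 group a vector with wild-type histone H3.3, and those of the Q5A group a vector with H3.3 whose glutamine 5 is an alanine and cannot carry a monoamine. All 3 vectors also carried GFP, which guided the dissection, so the tissue held transduced cells of any type beside cells that were not transduced, and every mouse kept its own H3.3 genes. Tissue was taken at zeitgeber times ZT0, 4, 8, 12, 16 and 20, with lights on at ZT0. After 1 repeated library was merged with its copy, there were 32 GFP, 39 H3.3 and 39 Q5A libraries of 1 mouse each, from 3 cohorts. GFP and H3.3 were pooled as 71 controls, after the design of the study.

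The gene rows took 3.49% to 5.63% of the uniquely placed reads of a library, which left 673306 to 3375352 reads per library for all genes together. The libraries came from a kit that keeps the strand and whose first read is antisense to the RNA, whereas the stated counting option gave a read to a gene only on the gene's own strand. A row may therefore hold reads antisense to its gene, or reads of a gene on the other strand that overlaps it, and the tables cannot tell these apart from reads of the gene's own mRNA. All values are accordingly the reads counted in a gene's row and not mRNA levels, and the rows are described in 2 classes. In 20 of the 87 rows, exon bases of the gene are shared with an annotated gene on the other strand, and in 67 none are. Markers of the tissue were low by the same counting, with a median of 4 reads for Hdc, the histamine-forming enzyme, against 90 for Slc18a2, the vesicular monoamine transporter, 276 for the neuronal Snap25 and 976.5 for the myelin gene Mbp. In 8 libraries the gene-row share exceeded 4.54% (3 scaled median absolute deviations above the median), namely 1 GFP, 4 H3.3 and 3 Q5A libraries. Test results that rest on them are given with and without them.

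The ribosomal protein rows were low for genes of this kind. Together they held 0.177% ± 0.0299 (SD, n = 110) of the gene reads of a library, with a range of 0.134% to 0.326%. A mean of at least 100 reads per library was found for 4 rows, 10 to under 100 for 40, 1 to under 10 for 33 and under 1 for 10, and no row was at 0 in every library. Large subunit rows held 0.0896% ± 0.0156 and small subunit rows 0.0870% ± 0.0149 (SD, n = 110) of the gene reads, which differed by less than the spread between libraries. The 20 overlapped rows held more of the reads, 0.104% ± 0.00686, than the 67 others, 0.0728% ± 0.0307. Per row, the median of the mean normalised counts (scaled by DESeq2-type size factors) was 26.3 for the overlapped rows and 6.99 for the others.

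Rps25, a small subunit protein known for its part in internal initiation, had the highest row, with 240 to 761 normalised counts in the 110 libraries and a median of 477. Rpl15, a large subunit protein that contacts the 28S rRNA, followed with 148 to 586 and a median of 294, and Rpl4, which lines the exit tunnel, with 54.4 to 413 and a median of 132. Rps25 was above Rpl15 in 110 of 110 libraries and Rpl15 above Rpl4 in 105 and both differences exceeded the larger SD of the pair. Among all gene rows, however, Rps25 came only 521st, Rpl15 838th and Rpl4 1602nd by mean count.

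The next rows were close to each other. Rpl5, a 5S rRNA-binding protein that can also stabilise p53, had a mean of 103 ± 28.8 normalised counts (SD, n = 110) and Rpl23a, at the mouth of the exit tunnel, of 90.8 ± 22.2. Below them stood Rpl8 (77.7 ± 31.5), Rpl18 (76.5 ± 19.4), Rps18 (73.1 ± 14.2), Rps28 (65.8 ± 18.2) and Rps15 (63.1 ± 24.8). Among the 12 highest rows, from Rpl4 down, each row differed from the next by less than the larger of their SDs, and the higher was above the lower in 48 to 76 of 110 libraries. Of these 12 rows, 8 were overlapped. By CPM per kb of exon, which divides the reads of a row by the exon length of its gene, Rps25 (129 ± 16.6) and Rpl15 (88.2 ± 13.6) again led. Below them were Rpl23a (77.3 ± 16.4), Rps15 (74.5 ± 33.5) and Rplp1 (56.9 ± 28.7), and 9 of the 12 highest rows were shared by both orders. The order per kb is again one of counted reads and not of mRNA levels, and 6 of its 12 highest rows were overlapped.

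**Figure D1:**
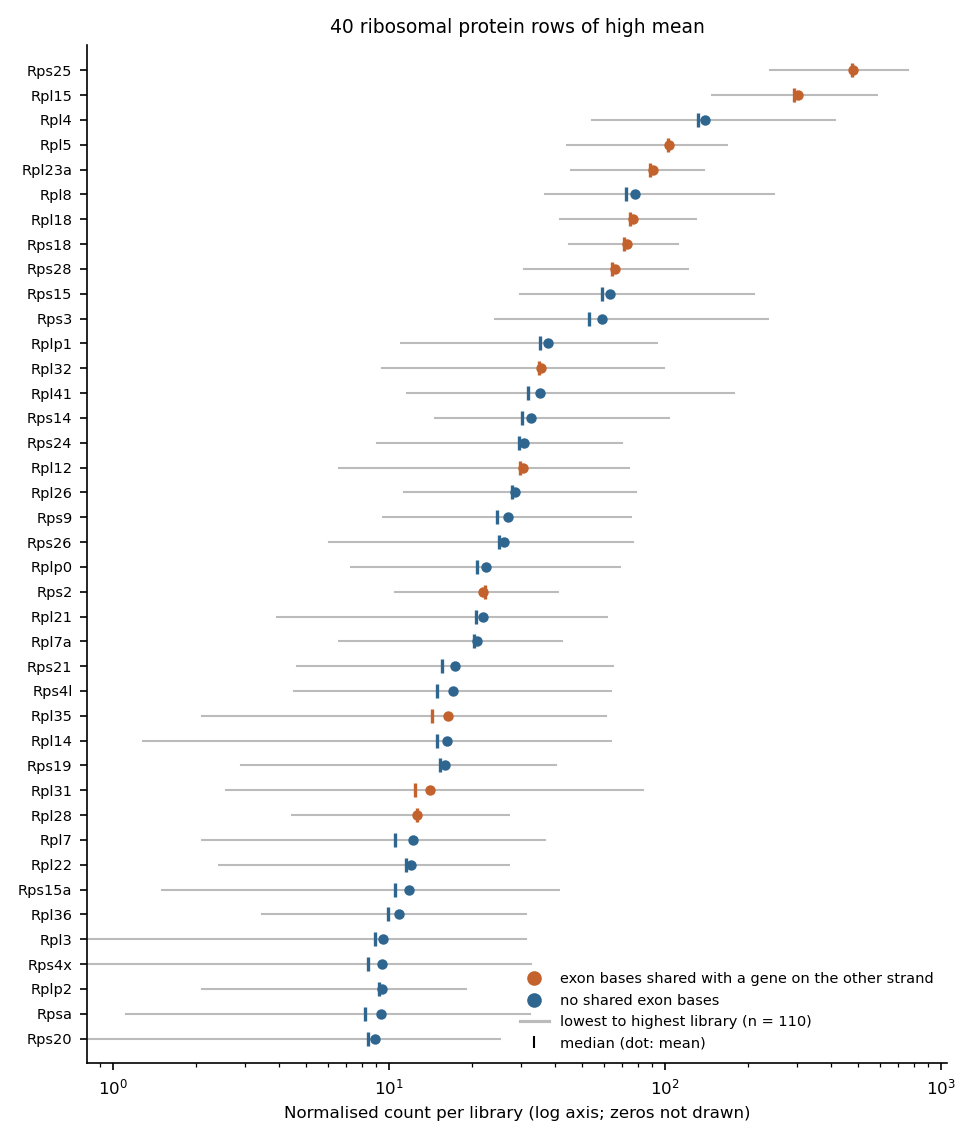
Normalised count per library (log axis) of 40 ribosomal protein rows with a mean of at least 10 reads. Dots mark the mean, ticks the median and grey lines the lowest to highest of 110 libraries, and orange rows share exon bases with a gene on the other strand. The means of Rps25 and Rpl15 stand apart at the top, although their ranges overlap each other and that of Rpl4. The rows from Rpl4 down overlap in range as well.

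Several proteins with central roles were barely counted. Rps6, the S6 kinase substrate of the small subunit, had a mean of 1.13 reads per library and was at 0 in 46 libraries, Rpl11, the partner of Rpl5 in the 5S particle, had 1.49 reads, and Rps27a, a fusion with ubiquitin, had 1.37. Rpl10, which completes the large subunit, had 0.327 reads, and Rps23, of the decoding centre, 0.373. The row of the pseudogene Rps23-ps1 held 99.4 reads, although a processed copy shares most of its sequence with the parent gene and the division of reads between the rows is uncertain. Together 254 such pseudogene rows held 0.0349% ± 0.0114 (SD, n = 110) of the gene reads. Members of other roles lay between these levels, with mean normalised counts of 59.4 ± 27.2 for Rps3, which guards the mRNA entry, 32.7 ± 11.8 for Rps14, 15.9 ± 6.66 for Rps19, the gene first linked to Diamond-Blackfan anaemia, 9.35 ± 5.46 for Rpsa, the laminin receptor homologue, 35.4 ± 20.2 for Rpl41 and 9.52 ± 4.69 for Rpl3, which shapes the peptidyl transferase centre. The stalk proteins, which recruit elongation factors, were at 22.5 ± 9.21 (Rplp0), 37.8 ± 15.2 (Rplp1) and 9.40 ± 4.01 (Rplp2).

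The paralogs Rpl7l1 and Rpl22l1 had lower means than the genes they resemble, and the pseudogene Rps4l had a higher one. Among these rows, only for Rpl22l1 did the difference exceed the larger SD of the pair. The pseudogene Rps4l was at 17.1 ± 8.09 normalised counts, above Rps4x at 9.45 ± 5.89 (SD, n = 110). Rpl7l1 reached 6.99 ± 3.76 beside 12.2 ± 6.92 for Rpl7, and Rpl22l1 2.08 ± 2.17 beside 12.1 ± 5.53 for Rpl22. The rows of Rps27 and Rps27l had 1.67 and 1.07 reads per library. The muscle paralog Rpl3l had 0.318 reads, and Rpl10l and Rpl39l, which are known from testis, had 1 read each in all libraries together. Paralogs share sequence, so that part of their reads may be placed nowhere or with the wrong copy.

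The partners on the other strand were often counted more than the ribosomal protein gene itself. Nkiras1, which shares 105 exon bases with Rpl15 (chr14:18267823-18271391, minus strand, build GRCm38), had a median of 1107 reads against 304.5 and was higher in 110 of 110 libraries. Sphk2, a sphingosine kinase that shares 373 bases with Rpl18 (chr7:45715457-45720836, plus strand), had 866.5 against 76. Cand2 had 404.5 against 32 for Rpl32, Fam69a 357 against 105.5 for Rpl5 and Tbc1d8 110 against 12.5 for Rpl31, each higher in 110 of 110 libraries. The opposite held for other pairs. Rps25 (chr9:44407139-44410427, plus strand) had 502.5 reads against 11 for Trappc4 and 45 for Ccdc84, Rps18 had 73.5 against 9 for Vps52, and Rps28 had 64.5 against 11 for Kank3, with the partner higher in 0 of 110 libraries. Other overlapped members with a mean of at least 1 read were Rpl10a, Rpl12, Rpl22l1, Rpl23a, Rpl28, Rpl30, Rpl35, Rps2, Rps10 and Rps27a, with mean normalised counts from 1.28 for Rps27a to 90.8 for Rpl23a.

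To set the rows beside the start sequences of their genes, the RefSeq promoter table of build GRCm38.p6 was searched, in which 63 of the 87 symbols had an entry. The 24 others included Rpl3, Rpl7, Rpl8, Rpl17, Rpl21, Rpl23a, Rpl29, Rpl30, Rpl32, Rpl36, Rplp1, Rps3a2, Rps3a3, Rps4l, Rps12l1, Rps14, Rps20, Rps27a and Rps29. A TOP start was scored where a C lay at the annotated start or within 5 bases of it and was followed by at least 4 pyrimidines. The sequences below are those of the highest rows and of the rows that return in the rhythm tests, with the pyrimidine run in capitals, 25 bases before the annotated start and 15 from it on, 5′ to 3′ on the strand of the gene.
Rps25 (chr9:44407689-44407728, plus): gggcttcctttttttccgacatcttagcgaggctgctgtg
Rpl15 (chr14:18270972-18271011, minus): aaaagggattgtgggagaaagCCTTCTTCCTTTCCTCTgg
Rpl4 (chr9:64173362-64173401, plus): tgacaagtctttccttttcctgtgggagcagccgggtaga
Rpl18 (chr7:45718046-45718085, plus): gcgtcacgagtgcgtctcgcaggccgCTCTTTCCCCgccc
Rps18 (chr17:33955651-33955690, minus): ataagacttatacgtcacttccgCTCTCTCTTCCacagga
Rps28 (chr17:33824548-33824587, minus): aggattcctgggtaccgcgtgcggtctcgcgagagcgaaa
Rps9 (chr7:3704016-3704055, plus): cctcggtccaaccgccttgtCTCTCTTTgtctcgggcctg
Rplp2 (chr7:141447626-141447665, plus): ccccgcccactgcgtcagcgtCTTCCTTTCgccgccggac
Rpl22l1 (chr3:28805483-28805522, plus): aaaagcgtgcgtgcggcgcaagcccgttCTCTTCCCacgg
Rps6 (chr4:86857353-86857392, minus): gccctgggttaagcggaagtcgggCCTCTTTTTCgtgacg

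Rpl15, Rps9 and Rplp2 thus had a run that began shortly before the annotated start, and Rps6, with almost no reads, had one as well. Rps25, Rpl4 and Rps28 had none by this rule. In Rps25 and Rpl4, however, a C followed by at least 4 pyrimidines lay farther than 5 bases before the annotated start. Of the 63 members with an entry, 29 (46%) had a TOP start, against 5718 of 27025 gene symbols in the table (21.2%). Within the members it was 10 of 14 overlapped rows (71.4%) and 19 of 49 others (38.8%). In the 250 bases before the start, CCGGAAG or its reverse complement CTTCCGG, the letters of an ETS core, was found in 19 members (30.2%) against 7.83% of all symbols. The E-box CACGTG, which reads the same on both strands and is bound by clock factors and Myc, was found in 5 members (7.94%) against 6.86%, CACGTT or AACGTG in 5 (7.94%) against 4.5%, and TATAAA on the gene's strand in 2 (3.17%) against 8.94%. A match describes letters and not a bound site.

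Across libraries, the 2 classes of rows behaved differently. The share of the 67 rows without shared bases followed the share of reads that gene rows took in a library, with Pearson's r = 0.919 and Spearman's rho = 0.789 over 110 libraries, r = 0.884 without the 2 libraries farthest from the median, and r = 0.822, 0.970 and 0.945 within cohorts 1, 2 and 3. The 20 overlapped rows did not follow it (r = -0.177, rho = -0.134). Both measures come from the same libraries, and the groups differ in them, so these are descriptions of the libraries. The other protein-coding rows without overlap behaved like the ribosomal protein rows (r = 0.805), so that this was not particular to ribosomal proteins.

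**Figure D2:**
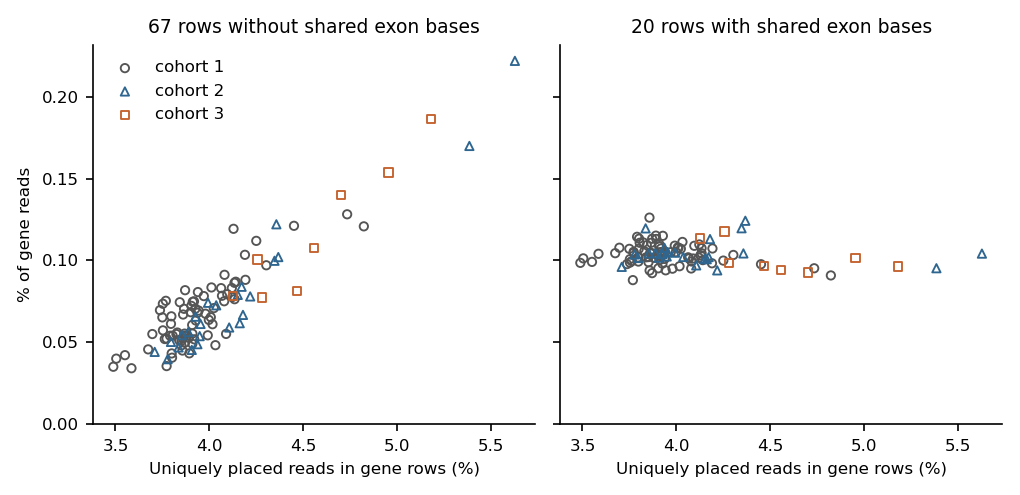
Percent of gene reads in the 67 ribosomal protein rows without shared exon bases (left) and the 20 with them (right), against the percent of uniquely placed reads in gene rows, for 110 libraries of 3 cohorts. The left share rises along the axis to 0.222% in the library with a gene-row share of 5.63%, whereas the right share stays between 0.0879% and 0.126%.

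Row by row the same division was seen. Among the 15 rows without shared bases and a mean of at least 20 reads, log2 levels of all 105 pairs were positively correlated over the 110 libraries, with a median r of 0.741 (0.659 within cohort 1). Among the 11 overlapped rows of that depth the median r of 55 pairs was -0.0398. Rpl4 (r = 0.946 with the sum of the other rows without shared bases), Rpl8 (0.939), Rps3 (0.916) and Rpl41 (0.900) moved closely together. Rpl7a (0.176) was an exception among the rows without shared bases, and Rpl32 (0.863) and Rps2 (0.561) were exceptions among the overlapped ones.

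By time of day, the summed share was lowest at ZT0, with 0.162% ± 0.0118 (SD, n = 15), and highest at ZT16, with 0.188% ± 0.0305 (n = 21), and the ranges of the 2 times overlapped (0.140% to 0.187% and 0.150% to 0.283%). It was 0.175% ± 0.0311 (n = 71) in controls and 0.179% ± 0.0278 (n = 39) in Q5A, a difference below the SD, and 0.171% ± 0.0192 (n = 78), 0.182% ± 0.0430 (n = 24) and 0.217% ± 0.0380 (n = 8) in cohorts 1, 2 and 3. Cohort 3 held no GFP library and no library at ZT0 or ZT20. The highest library at ZT16 (0.283%) was of cohort 3 and one of the 8 with a high gene-row share, of which none was at ZT0. The means by time are not given without those 8, and the part of cohort in the difference between times was not tested. In bulk tissue, fewer cells of a type and less RNA per cell cannot be told apart, here or in any comparison that follows. Of the rows without shared bases, the share ranged from 0.0492% ± 0.00533 (n = 6) in GFP at ZT8 to 0.108% ± 0.0622 (n = 6) in GFP at ZT12, where the highest library reached 0.222% and was one of the 8 with a high gene-row share.

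**Figure D3:**
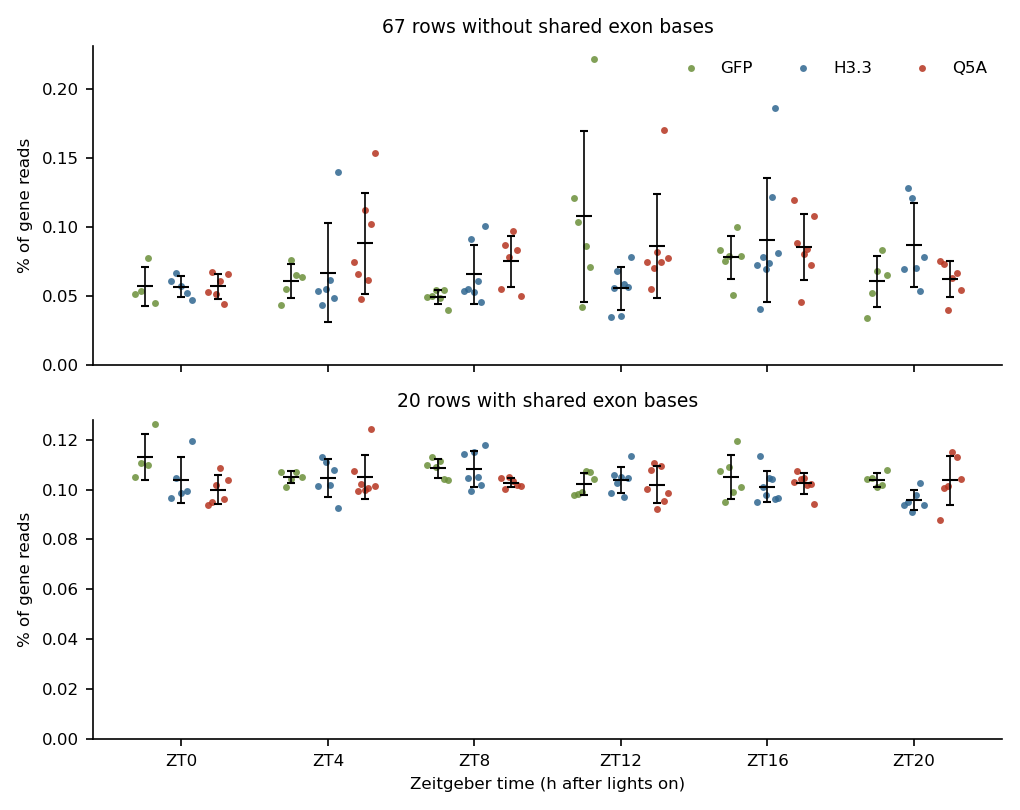
Percent of gene reads in the 67 ribosomal protein rows without shared exon bases (top) and the 20 with them (bottom) in each library, by virus and ZT (hours after lights on), with the mean ± SD of each group of 4 to 8 libraries. In the top panel single libraries lie far above their groups at ZT4, ZT12 and ZT16. In the bottom panel the 3 viruses overlap at each ZT, but not all groups of different times do. All GFP libraries at ZT8 (lowest 0.1036%) lie above all H3.3 libraries at ZT20 (highest 0.1024%).

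To ask whether Q5A altered these genes, Q5A was compared with the pooled controls over all ZT (edgeR, quasi-likelihood test with ZT as a factor, Benjamini-Hochberg adjustment over all 13254 genes tested, calls at an adjusted p under 0.01). None of the 56 ribosomal protein rows tested was called (0 of 56), beside 0.0151% of all genes, and DESeq2 called 0 as well. At an unadjusted p under 0.05 both tools found 5 rows, all with positive differences, which is 8.93% of the rows tested beside 5.42% of all genes. Without the 8 libraries of high gene-row share it was 10 of 54 (18.5%) beside 9.5%, and within cohort 1 10 of 53 (18.9%) beside 10.1%, with 0 called in both. Rpl21 had the smallest p, with 9.29 to 45.5 normalised counts in Q5A (median 23.5) and 3.91 to 61.9 in controls (median 19.2). The groups overlapped almost completely, and the log2 difference was 0.24 ± 0.11 (SE) with an edgeR adjusted p of 0.839. Rps24 (0.20 ± 0.09) and Rpl4 (0.18 ± 0.08) followed at the same adjusted p.

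The differences of the other rows were small. Over the 56 rows the median log2 difference was 0.07, beside 0.01 for all genes, and the rows ranged from -0.27 to 0.30. For Rps25 it was -0.05 ± 0.06 (SE), with 468 ± 88.3 normalised counts in Q5A (SD, n = 39) and 488 ± 95.9 in controls (SD, n = 71), and for Rpl15 -0.06 ± 0.06. Of the rows without shared bases, 34 of 40 had a positive difference (median 0.08), and of the overlapped rows 4 of 16 (median -0.06). These rows are counted in the same libraries and moved together, as shown above, so their number is not a number of independent observations. The gene-row share was 4.03% ± 0.347 in Q5A and 4.03% ± 0.342 in controls. Without the 8 libraries of high share the median was 0.15 for the rows without shared bases (32 of 38 positive) and -0.06 for the overlapped ones (4 of 16 positive).

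The 2 control viruses were compared in the same way. H3.3 against GFP over all ZT gave 0 of 59 rows called (0% of 13891 genes), 2 rows at an unadjusted p under 0.05 (3.79% of all genes reached it) and 0 and 3 rows with DESeq2. Rpl22l1 was at 0 to 10.7 normalised counts in H3.3 (median 1.23) and 0 to 9.12 in GFP (median 2.36), a log2 difference of -0.74 ± 0.32 (SE, edgeR adjusted p = 1.00). Rpl14 (0.31 ± 0.15) and Rpl21 (0.26 ± 0.14) came next, both with overlapping groups and the same adjusted p. For the rows without shared bases the median difference was 0.07 with all libraries and -0.03 without the 8 of high gene-row share, so its sign rested on those libraries.

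**Figure D4:**
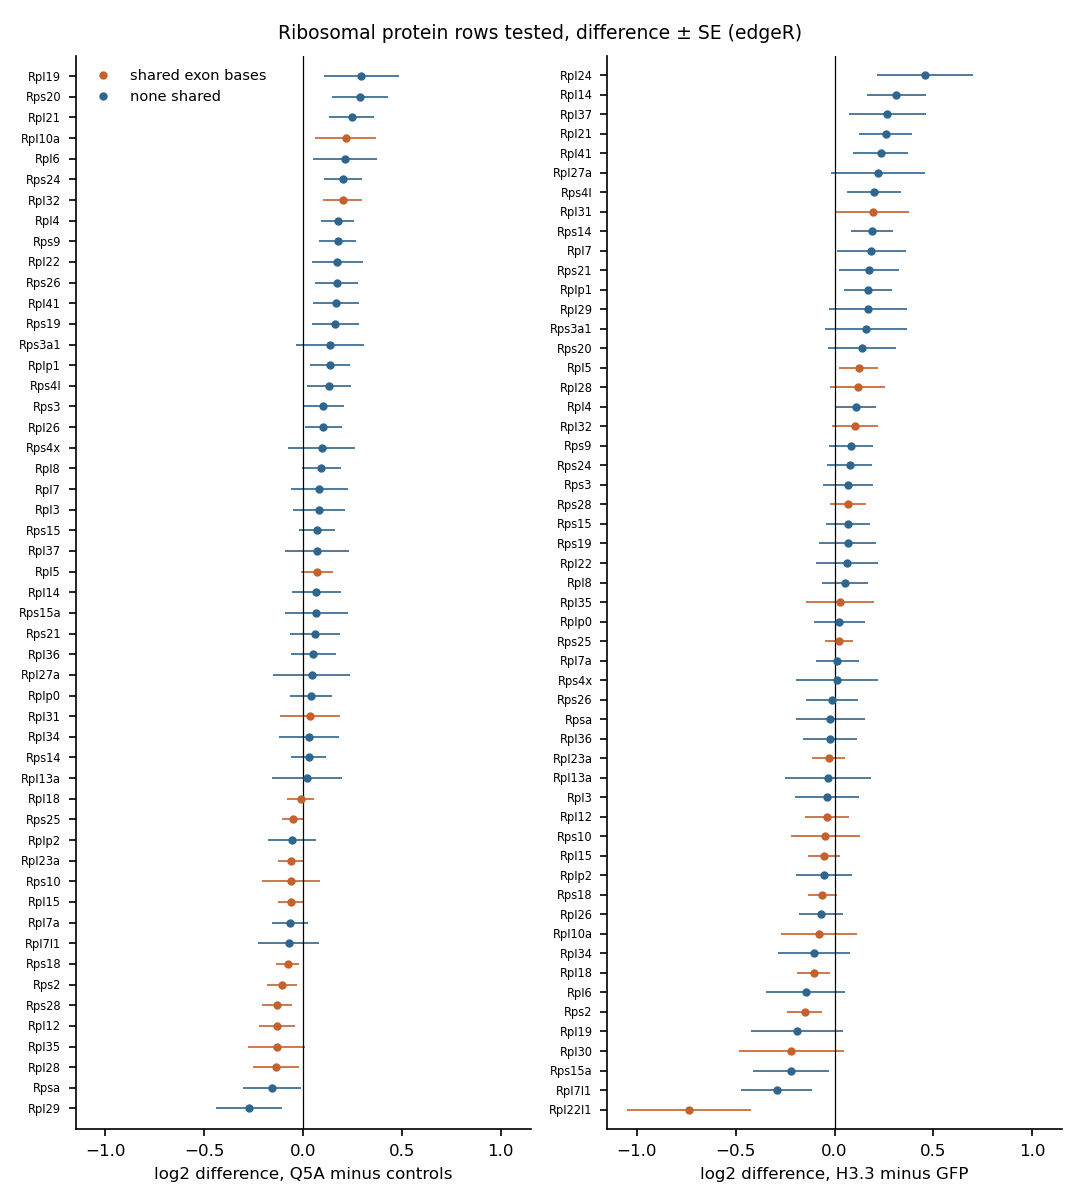
Log2 differences (edgeR, dots, with SE as lines) of ribosomal protein rows tested over all ZT, for 39 Q5A against 71 control libraries (left, 51 rows drawn) and 39 H3.3 against 32 GFP libraries (right, 54 rows drawn). No row passed the adjusted threshold, and on the left most rows with shared exon bases (orange) lie below 0 and most others (blue) above it.

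At single times no row was called in any of the 12 comparisons by edgeR or DESeq2 (0% of genes tested in each by edgeR). Over all genes DESeq2 called 50 for H3.3 against GFP at ZT12, 5 for Q5A at ZT8 and 0 or 1 in each other comparison. At an unadjusted p under 0.05 the Q5A comparisons gave 2 of 39 rows at ZT0 (5.08% of all genes reached it), 9 of 42 at ZT4 (10.6%), 7 of 41 at ZT8 (18.1%), 0 of 45 at ZT12 (2.81%), 2 of 48 at ZT16 (1.45%) and 1 of 42 at ZT20 (11.4%). H3.3 against GFP gave 2 of 38 at ZT0 (5.5%), 0 of 34 at ZT4 (1.12%), 7 of 37 at ZT8 (6.67%), 15 of 41 at ZT12 (29.4%), 1 of 47 at ZT16 (2.49%) and 8 of 40 at ZT20 (13.4%). DESeq2 gave 8 rows for Q5A at ZT8 and 1, 5 and 13 for H3.3 at ZT0, ZT8 and ZT12, and the same counts elsewhere. No share of all genes at that p is given for DESeq2. The share of ribosomal protein rows was above that of all genes in 6 of the 12 comparisons and below it in 6, or above in 4 and below in 8 without the 8 libraries of high gene-row share. Without them H3.3 against GFP gave 1 of 36 rows at ZT20 (3.94% of all genes), 5 of 41 at ZT12 (18.1%) and 4 of 34 at ZT4 (2.59%), so that the share at ZT12 and ZT20 passed from above to below that of all genes and the share at ZT4 from below to above. The widest differences were between H3.3 and GFP at ZT12, where 15 of 41 rows (36.6%) reached that p, beside 29.4% of all genes. Rpl26, at the exit tunnel, had 11.3 to 29.9 normalised counts in H3.3 (median 18.2, n = 7) and 23.4 to 62.4 in GFP (median 38.4, n = 6). The groups overlapped only in part, and the log2 difference was -1.11 ± 0.29 (SE, edgeR adjusted p = 0.0700), or -0.86 without the GFP library of high gene-row share. Rplp1 (-0.83 ± 0.26, adjusted p = 0.0786) and Rps15a (-1.35 ± 0.45, adjusted p = 0.0847) followed.

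All 27 rows without shared bases were lower in H3.3 at ZT12, with a median log2 difference of -0.65, while 11 of the 14 overlapped rows were higher, with a median of 0.24. Over all genes the median was -0.08. The gene-row share was 4.33% ± 0.701 in GFP (n = 6) and 3.87% ± 0.216 in H3.3 (n = 7) at that time, and its part in the difference was not tested. Without the GFP library of high share the median of the 27 rows was -0.38 (26 of 27 negative, 3 at an unadjusted p under 0.05 in place of 11, beside 18.1% of all genes), and within cohort 1 it was -0.65 (22 of 24 negative).

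At ZT4, Q5A had 9 of 42 rows (21.4%) at an unadjusted p under 0.05, beside 10.6% of all genes, all 9 with positive differences. Within cohort 1 it was 6 of 42 (14.3%) beside 13.4%, and without the 2 libraries of high share 13 of 39 (33.3%) beside 13.8%. Rpl21 had 16.3 to 45.5 normalised counts in Q5A (median 25.02, n = 7) and 12.2 to 26.7 in controls (median 16.4, n = 11), a log2 difference of 0.74 ± 0.24 (SE, edgeR adjusted p = 0.420). Rpl32 (0.63 ± 0.23) and Rpl4 (0.53 ± 0.19) followed. Of the rows without shared bases, 26 of 28 were above 0 with a median of 0.48, or 24 of 25 with a median of 0.44 without the 2 libraries of high share at that time, and 27 of 28 with a median of 0.33 within cohort 1. The gene-row share was 4.19% ± 0.400 in Q5A (n = 7) and 3.98% ± 0.268 in controls (n = 11), and its part was not tested.

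At the other times the 3 rows of smallest p had edgeR adjusted p of at least 0.21. For Q5A they included Rps15a and Rps28 at ZT0, Rpl32 and Rps25 at ZT8, Rpl14, Rpl35 and Rps24 at ZT12, Rpl7l1, Rplp2 and Rps2 at ZT16, and Rpl7, Rpl7a and Rpl31 at ZT20. For H3.3 against GFP they included Rpl5, Rpl21 and Rps25 at ZT0, Rpl14, Rpl23a and Rps18 at ZT4, Rpl4 at ZT8, Rpl14, Rpl18 and Rps19 at ZT16, and Rpl7, Rpl21 and Rpl15 at ZT20. At ZT20, Rpl7 showed opposite signs in the 2 comparisons, which share the H3.3 libraries. It had 3.84 to 13.2 normalised counts in Q5A (median 6.86, n = 6), 10.8 to 33.1 in H3.3 (median 15.3, n = 6) and 7.24 to 13.6 in GFP (median 9.71, n = 5), so H3.3 had the highest values and each group overlapped the next.

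Rhythms across the day were tested with JTK_CYCLE, a rank test against templates with periods of 8 to 24 h, on the normalised counts, with a call at a p under 0.05 after adjustment over the templates of a gene. In the 71 controls 13 of 59 rows were called (22.0%), beside 14.4% of all 13891 genes tested. That adjustment leaves out the number of genes, and at a Benjamini-Hochberg q under 0.05 over all genes only Rps9 remained (1 of 59 rows, beside 1.61% of all genes). The 13 rows were 5 of 18 overlapped rows and 8 of 41 others. By their mean counts, 8 were highest at ZT16, 3 at ZT8, 1 at ZT12 and 1 at ZT20. They belonged to different parts of the ribosome, among them Rps9, Rps21, Rps25 and Rps28 of the small subunit and Rpl3, Rpl7l1, Rpl8, Rpl23a, Rpl32, Rplp1 and Rplp2 of the large one, and the pseudogene Rps4l was also called.

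Rps9, which binds the body of the small subunit and takes part in the accuracy of decoding, had the smallest p. In controls it was at 9.48 to 34.6 normalised counts at ZT8 (median 18.8, n = 13) and at 17.5 to 60.3 at ZT16 (median 29.3, n = 14), with means of 19.0 ± 7.02 and 32.1 ± 10.05 (SD). The times overlapped, and the ratio of the means was 1.68, with a 24 h template (JTK_CYCLE, exact null distribution, adjusted p = 8.08e-05, q = 0.0173). Rpl32 ran from 26.0 ± 7.06 at ZT8 to 43.0 ± 18.4 at ZT16 (JTK_CYCLE adjusted p = 0.00126, exact, q = 0.0631). Both held their call at that threshold in 13 of 13 alternatives. Rplp2 ran from 6.41 ± 3.55 to 12.4 ± 3.80 and Rplp1 from 28.3 ± 10.3 to 46.0 ± 17.97 between the same times. These 4 rows were highest after lights off.

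Another group of rows was highest in the light phase. Rps25 was at 415 to 696 normalised counts at ZT8 (median 563, n = 13) and 277 to 549 at ZT20 (median 402, n = 11), with means of 563 ± 80.3 and 403 ± 87.1 (SD), and the highest library at ZT20 was below the median of ZT8. Rpl23a fell from 107 ± 20.4 at ZT8 to 72.4 ± 22.5 at ZT20, and Rps28 from 79.9 ± 16.4 at ZT8 to 57.3 ± 13.4 at ZT16. All 3 are overlapped rows. The call for Rps25 was lost in 7 of 13 alternatives, among them without each of replicate numbers 1 to 4 of cohort 1 (JTK_CYCLE adjusted p of 0.0797 to 0.115). That for Rps28 was lost in 4 of 13 and that for Rpl23a in 3 of 13. Of other rows, Rpl7l1 ran from 4.36 ± 2.23 at ZT0 to 10.1 ± 4.31 at ZT16, Rps4l was highest at ZT12 with 21.4 ± 8.33, and Rpl3, Rps21 and Rpl8 were highest at ZT16. The call was lost in 6 of 13 alternatives for Rpl3 and in 5 of 13 for Rps21.

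In the 39 Q5A libraries 4 of 59 rows were called (6.78%), beside 2.97% of all genes, and 0 at a q under 0.05 (0.0072% of all genes). All 4, among them Rpl18, Rpl22l1 and Rps18, were overlapped rows, and 1 of the 4 was also called in controls. Rpl18 was at 44.97 to 79.2 normalised counts at ZT8 (median 53.0, n = 6) and 74.3 to 118 at ZT20 (median 92.7, n = 6), with means of 57.1 ± 12.1 and 93.8 ± 16.8 (SD). The 2 times overlapped only narrowly (JTK_CYCLE, exact null distribution, adjusted p = 0.000730, q = 0.491). In controls Rpl18 was at 70.9 ± 11.5 at ZT8 and 77.9 ± 21.8 at ZT20 (adjusted p = 0.641, exact). Rps18 ran from 61.8 ± 9.96 at ZT8 to 84.0 ± 14.5 at ZT20 in Q5A, with the call lost in 8 of 13 alternatives (adjusted p up to 0.465). Rpl22l1 ran from 0.447 ± 0.870 at ZT16 to 2.52 ± 0.833 at ZT0, which is at the limit of what single reads can show.

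**Figure D5:**
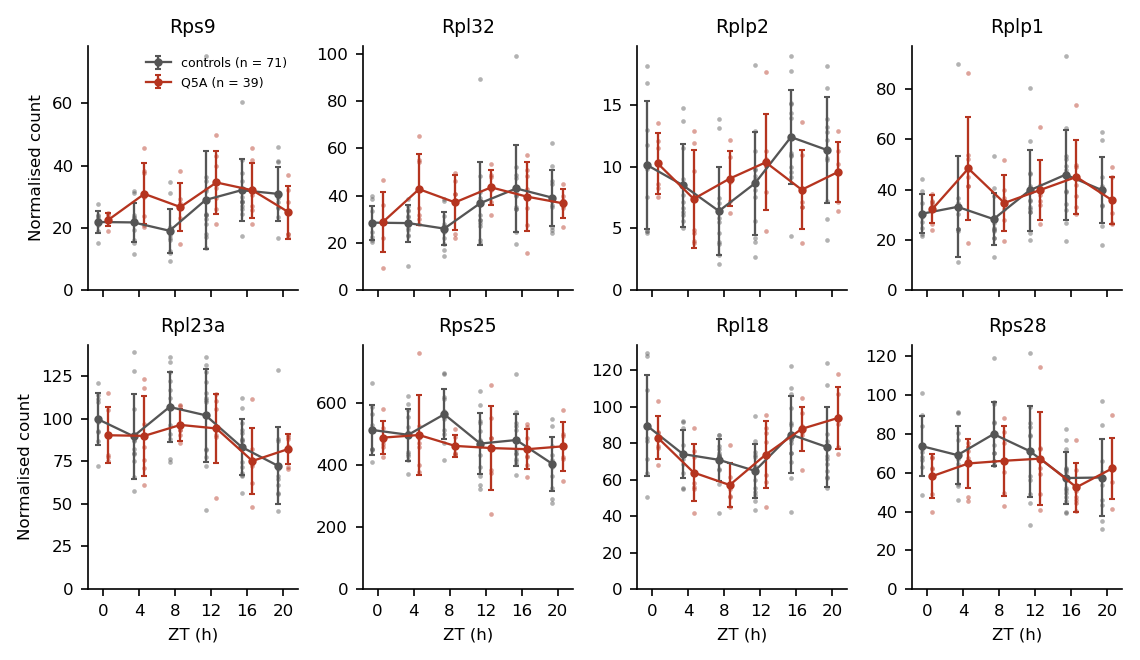
Normalised counts of 8 ribosomal protein rows across the day (ZT, hours after lights on) in controls (grey, n = 71) and Q5A (red, n = 39), with single libraries as faint points and the mean ± SD as lines. In controls Rps9, Rpl32 and Rplp1 are highest at ZT16 and Rps25, Rpl23a and Rps28 at ZT8, whereas Rpl18 is highest at ZT20 in Q5A, and the spread of the libraries overlaps at most times.

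A call in one arm does not show that the arms differ, so the 24 h cosine and sine were compared between Q5A and controls in 1 model (edgeR, interaction, adjusted p under 0.05). None of 59 rows was called (0 of 59), beside 0.122% of all genes, and DESeq2 called 0, beside 0.072% of all genes. At an unadjusted p under 0.05 both tools found 10 rows, 16.9% beside 14.4% of all genes. The smallest adjusted p were 0.241 for Rpl7l1, 0.243 for Rpl22l1 and 0.250 for Rpl7. For Rps9 it was 0.279, for Rpl32 0.279 and for Rpl18 0.342, so that neither the rhythms called in controls alone nor those called in Q5A alone were shown to differ between the arms. Within cohort 1 alone Rps18 was called (1 of 53 rows, edgeR adjusted p = 0.0423), beside 6.15% of all genes.

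The control viruses were also tested apart. In GFP 5 of 59 rows were called (8.47%), beside 8.98% of all genes, namely Rpl7l1, Rpl3, Rplp2, Rpl21 and Rps9, and in H3.3 6 of 59 (10.2%), beside 4.97%, namely Rps28, Rps9, Rpl23a, Rpl32, Rplp1 and Rps15a. At a q under 0.05 both gave 0, beside 0% and 0.0072% of all genes, and an edgeR 24 h cosinor called 4 in GFP (5.7% of all genes) and 0 in H3.3 (0.783%). Rps9 was the only row called in both, with the highest mean at ZT12 in GFP (33.1 ± 21.8, SD, n = 6) and at ZT20 in H3.3 (33.6 ± 7.87, n = 6). In all, 18 rows were called in at least 1 of the 4 tests and 0 in all 4. No such count of all genes is set beside these overlaps, or beside that of Q5A with controls above. They describe the calls and are not read as a trait of these rows. Without the libraries of high gene-row share, of which 4 are H3.3 libraries, 0 rows were called in H3.3 (2.54% of all genes), 4 in GFP (7.45%), 13 in the pooled controls (13.2%) and 3 in Q5A (3.41%). Over the pooled controls, the edgeR cosinor called 14 of 57 rows (11% of all genes). With the gene-row share as a covariate in that cosinor, 7 rows were called in controls (8.16% of all genes) and 1 in GFP (3.44%). It was 0 in H3.3 (0.0704%) and 1 in Q5A (0.239%). The counts in GFP ranged from 3 to 11 when 1 replicate number of cohort 1 was removed, with 11 without number 3 (12.4% of all genes).

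Other genes of protein synthesis were compared by lists of known function. None of the translation elongation and termination factors, initiation factors, ribosome biogenesis factors, regulators of TOP mRNA translation, snoRNA host genes, mitochondrial ribosomal proteins or ribosomal protein pseudogenes was called for Q5A against controls (0 of 12, 0 of 35, 0 of 27, 0 of 15, 0 of 5, 0 of 67 and 0 of 24 tested) or for H3.3 against GFP. Rhythms in controls were called for 2 of 12, 4 of 35, 2 of 29, 2 of 16, 0 of 5, 5 of 68 and 2 of 25 genes of these lists, beside the 14.4% of all genes. In Q5A it was 1 initiation factor and 1 TOP regulator and none of the other lists. The summed level of the list genes without shared bases followed that of the ribosomal protein rows across libraries, with r = 0.910 for elongation factors, 0.912 for initiation factors, 0.915 for biogenesis factors and 0.888 for mitochondrial ribosomal proteins. Of the ribosomal proteins whose names fall outside the rule (Fau, Rack1 and Rpl36al among them), 3 were in the tables and none had enough reads to be tested.

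Markers of some cell types moved with the rows as well, and those of others did not. Across the 110 libraries the log2 summed level of the 5 neuronal markers had r = 0.751 with that of the ribosomal protein rows without shared bases, the 5 astrocyte markers 0.745, the 4 endothelial markers 0.554, the 5 oligodendrocyte markers 0.404, the 4 erythroid markers 0.204, the 4 pituitary markers 0.0864, the 3 striatal markers 0.0656, the 4 histaminergic markers -0.192, the 5 microglial markers -0.251 and the 3 ependymal or choroid plexus markers -0.475. Some of these markers are themselves overlapped on the other strand. Over the marker rows without shared bases, on the CPM scale, the negative r became positive. It was 0.433 for the histaminergic, 0.586 for the microglial and 0.379 for the ependymal or choroid plexus markers. The scale changed along with the rows, and for the 5 neuronal markers, none of them overlapped, r was 0.818 on the CPM scale. The part of the overlap in the change of sign was not tested. Each of the markers summed here had reads in at least 1 library. The sum of the neuronal markers was 391 to 1694 normalised counts in controls (median 648) and 515 to 1289 in Q5A (median 748), and that of the histaminergic markers 63.4 to 369 (median 106) and 77.2 to 213 (median 121). The part of these differences in the results on the ribosomal protein rows was not tested.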

How the data were processed

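Per the labels and the methods, polyadenylated RNA was made into stranded libraries (Illumina Stranded mRNA Prep) and sequenced on Illumina HiSeq or NovaSeq instruments. The authors aligned the reads to GRCm38 with STAR 2.7.11b and counted them per gene name with HTSeq 2.0.5 (exons of Ensembl release 93, own strand only), and the deposited files hold these raw counts, before the normalisation with DESeq2 1.44.0 that the submitters' notes name. From the counts, the 5 summary entries of each file were left out, and 18 further files that the labels tie to no sample were not used here, so the wild-type part of the name rule was not applied. The 2 Q5A libraries at ZT4 labelled replicates 2 and 3 of cohort 2 differed by less than the sampling noise, in 3 rows by 6 reads in all. They were taken as 1 library and its copy, and their mean was counted as 1 sample. Shared exon bases were taken from GENCODE M21.

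Group differences were tested with edgeR 4.0.16 in R 4.3.3 (TMM factors, filterByExpr, quasi-likelihood test), with DESeq2 1.42.0 as an alternative. Rhythms were tested with a reimplementation of JTK_CYCLE (20 templates) in Python 3.11.15 on counts scaled by median-of-ratios factors, in rows that passed filterByExpr over all libraries, which 59 of the 87 ribosomal protein rows did. All tests ran on the whole table. Both scripts were tested on simulated data with known changes. The labels call each library 1 mouse. Gene reads ranged from 673306 to 3375352 per library (median 1474422.5), so a row with under 1 read per library supports no comparison. SDs, not counting intervals, are given as errors.

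Members and gene lists were chosen with earlier results of these data known. The genes named were the 12 highest rows by mean count, up to 12 rows called in each test or the 3 of smallest p where fewer than 3 were called, members of set roles, paralogs, and rows overlapped on the other strand. Rpl8 among the rhythms in controls, Rps23 and the rows named in the correlations were chosen after their values were seen. Some members are counted but not reported here by name. Alternatives were other size factors, no filter, DESeq2, a 24 h template or cosinor, the replicate block, cohort 1 alone and leaving out each replicate number. A gene-row share covariate and the removal of the 8 libraries of high share were added after seeing the data.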

Additional observations from a re-analysis of the deposited data

Results flagged for a closer look

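In 54 groups tested (the summed share of gene reads in all ribosomal protein rows, in those without and in those with shared exon bases, for each virus and ZT), 7 values of 5 libraries stood apart from their group by Dixon's criterion, and chance alone flags about 1 in 20 groups. The H3.3 library at ZT4 of cohort 3 held 0.2325% of its gene reads in these rows, beside 0.1555% to 0.1659% in the 5 others, and 0.1398% in the rows without shared bases, beside 0.04322% to 0.06123%. Its gene-row share was 4.702%, beside a group median of 3.886%. The Q5A library at ZT12 of cohort 2 (replicate 1) held 0.2651%, beside 0.1627% to 0.1837%, and 0.1699% in the rows without shared bases, beside 0.0550% to 0.08179%, with a gene-row share of 5.385% beside a median of 3.871%. The GFP library at ZT8 of cohort 2 held 0.1433% in all rows, beside 0.1582% to 0.1632%, with a gene-row share of 3.778%. In the overlapped rows, the merged Q5A library at ZT4 of cohort 2 held 0.1242%, beside 0.09929% to 0.1072%, and the Q5A library at ZT16 of cohort 3 held 0.09401%, beside 0.1020% to 0.1073%. Whether the gene-row share had a part in these values was not tested.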

How the results depend on the processing

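Of the group values and counts, 111 alternative values stayed within the main count or spread and 34 did not. Of the values of the named genes, 434 kept their side of the threshold, 119 lost it and 0 reversed. Many of the 434 belong to virus comparisons and rhythm differences that were not called in the main fit, where keeping a side meant staying uncalled. All 119 losses were of rhythm calls, such as that of Rps25 in pooled controls (lost in 7 of 13 alternatives). All comparisons of viruses, over all ZT and at each ZT, kept 0 ribosomal protein rows called in the alternatives run, and the rhythm difference did so except within cohort 1 alone (1 row). Rows called rhythmic moved more. In pooled controls (13 rows) there were 20 with 24 h templates alone (23.4% of all genes) and 1 at a q under 0.05. There were 6 in cohort 1 (12.3%) and 8 to 13 when a replicate number was left out. The edgeR cosinor called 14, and 7 with the gene-row share as a covariate. In Q5A (4 rows) there were 0 at the q (0.0072% of all genes) and 1 to 3 without a replicate number (1.45% to 2.53%). The edgeR cosinor called 1 with and 1 without the covariate (0.239% in both). In GFP (5 rows) there were 12 with 24 h templates (15.0%), 0 at the q (0%) and 2 in cohort 1 (5.56%). Without a replicate number there were 3 to 11 (4.63% to 12.4%). The cosinor called 4 (5.7%), and 1 with the covariate (3.44%). In H3.3 (6 rows) there were 11 with 24 h templates (10.5%), 0 at the q (0.0072%) and 3 in cohort 1 (6.45%). Without the libraries of high gene-row share there were 0 (2.54%), and without a replicate number 2 to 6 (2.31% to 4.97%). The cosinor called 0 (0.783%), and 0 with the covariate (0.0704%). The cause of these moves was not tested. The summed share of gene reads was 0.0728% without the overlapped rows and 0.177% to 0.178% without a replicate number, and Q5A minus controls ran from 0.00162 to 0.00743 percentage points.

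Replicate numbers did not pair the libraries as a whole. Deviations from the group means had a median r of 0.0117 over 778 pairs with the same number (171 over 0.1) and -0.0019 over 4928 other pairs. It was higher for replicate 2 of cohort 2 (0.108, 19 of 36 pairs over 0.1) and for replicate 1 of cohort 3 (0.245, 15 of 21), which each hold few libraries. With the replicate block, 0 rows were called in each comparison of viruses and in the rhythm difference, and in the edgeR cosinor 17 in controls (16.2% of all genes), 8 in H3.3 (6.07%) and 0 in both GFP (1.16%) and Q5A (0.0854%). Depth is one limit, since 33 of the 87 rows averaged 1 to under 10 reads and 10 under 1, and 28 were not tested for rhythm.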

Other observations

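Ribosomal protein pseudogene rows were the list that followed the ribosomal protein rows without shared bases most closely across the 110 libraries (r = 0.971, a description of libraries that share depth). In Q5A against controls 6 of 24 such rows tested had an unadjusted p under 0.05, with a median log2 difference of 0.18, beside 5.42% of all genes, and 0 were called by edgeR. Mitochondrial ribosomal proteins, which are encoded by nuclear genes, together held more gene reads (0.455% ± 0.0321, SD, n = 110) than the cytosolic ones. Of their 77 rows 50 had no exon bases shared with a gene on the other strand, against 67 of 87 cytosolic rows. These shares are of counted reads and not of mRNA. Regulators of TOP mRNA translation and ribosomal protein kinases followed the rows less closely (r = 0.759), as did snoRNA host genes (r = 0.848).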
